A study of Mus musculus with 16 samples.

Results

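Cholesterol synthesis was followed in the newborn mouse brain through 8 genes, Hmgcs1, Idi1, Fdps, Fdft1, Sqle, Lss, Dhcr7 and Insig1, among 26477 genes and other array features tested. The genes were chosen by name, and every non-control probe whose identifier mapped to their RefSeq symbols was taken, 11 of 56605 probes. Fdft1 had 2 probes and Lss 3, each other gene had 1, and the brightest probe stood for its gene. All 8 genes were well above background on all 16 arrays. The animals were C57BL/6 mice at postnatal day 1, the RNA came from brain, and each animal was measured on a 1-colour array. There were 4 animals from sperm that had been freeze-dried and then held at 95 °C for 1 h (heated), 4 from freeze-dried sperm exposed to X-rays at 5 Gy (irradiated), 4 from freeze-dried sperm without further treatment (freeze-dried) and 4 from fresh sperm (fresh). Freeze-drying was thus shared by the heated, irradiated and freeze-dried groups, only the sperm had been treated, and the comparisons ask whether the treatment of the sperm left a trace in the brains of the offspring. The labels number the neonates without saying which share a litter, so the p-values measure the spread between these animals only.

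Cells make cholesterol from acetyl-CoA through mevalonate, isoprenoid units, squalene and a chain of sterols. The transcription factor SREBP2, encoded by Srebf2, switches the genes of this pathway on together when sterols in the endoplasmic reticulum run low, and the Insig proteins hold SREBP2 back when sterols are plentiful. The brain is separated from blood lipoproteins by the blood-brain barrier and makes its own cholesterol, and the demand is high while neurites grow and myelin forms. Because whole-tissue RNA was measured, fewer cells of a type and less RNA per cell cannot be told apart in any value below.

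The promoters are shown because joint control by SREBP2 and its partner NF-Y is what ties these genes together. Of the 8 genes, 5 were found in the RefSeq promoter table (build GRCm38.p6), namely Hmgcs1, Idi1, Lss, Dhcr7 and Insig1. The 250 bases before the annotated start are printed on the coding strand, all on the plus strand of the build, with matches to the sterol regulatory element core (TCACNCCAC) and to the NF-Y box (CCAAT, read as ATTGG on the other strand) in capitals. Both strands were searched and no match overlapped another.
Hmgcs1, chr13:119690101-119690350: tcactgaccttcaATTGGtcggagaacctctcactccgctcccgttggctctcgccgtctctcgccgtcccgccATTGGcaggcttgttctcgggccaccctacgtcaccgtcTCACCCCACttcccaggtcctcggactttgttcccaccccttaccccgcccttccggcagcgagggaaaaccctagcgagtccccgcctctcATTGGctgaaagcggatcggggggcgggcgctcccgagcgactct
Idi1, chr13:8885356-8885605: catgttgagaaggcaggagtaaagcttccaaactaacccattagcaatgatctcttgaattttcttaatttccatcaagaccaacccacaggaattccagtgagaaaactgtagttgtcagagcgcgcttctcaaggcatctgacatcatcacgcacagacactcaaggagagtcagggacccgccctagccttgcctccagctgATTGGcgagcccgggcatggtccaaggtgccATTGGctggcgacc
Lss, chr10:76531355-76531604: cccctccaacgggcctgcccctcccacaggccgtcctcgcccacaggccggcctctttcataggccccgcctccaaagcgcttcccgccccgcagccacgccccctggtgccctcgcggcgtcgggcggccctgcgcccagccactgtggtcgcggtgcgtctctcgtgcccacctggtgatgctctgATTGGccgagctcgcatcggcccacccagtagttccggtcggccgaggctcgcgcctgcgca
Dhcr7, the 1 of 3 annotated starts with NF-Y boxes, chr7:143829964-143830213: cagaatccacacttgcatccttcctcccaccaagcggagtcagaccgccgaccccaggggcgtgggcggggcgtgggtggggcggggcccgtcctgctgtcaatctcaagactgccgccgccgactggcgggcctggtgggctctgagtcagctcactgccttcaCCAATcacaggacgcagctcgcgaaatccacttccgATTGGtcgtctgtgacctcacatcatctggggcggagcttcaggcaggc
Insig1, chr5:28071162-28071411: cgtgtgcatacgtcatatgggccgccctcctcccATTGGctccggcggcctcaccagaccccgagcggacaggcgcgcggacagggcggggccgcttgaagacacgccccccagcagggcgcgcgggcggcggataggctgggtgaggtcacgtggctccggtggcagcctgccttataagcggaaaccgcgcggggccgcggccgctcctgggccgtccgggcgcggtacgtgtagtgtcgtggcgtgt

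The Hmgcs1 window held the element core 137 bases before the start, written TCACCCCAC, with NF-Y boxes 237, 176 and 45 bases before the start. The core letters occur in 1.05% of the 32851 promoter windows of the table, and core and NF-Y box together in 0.326%. The windows of Idi1, Lss, Dhcr7 and Insig1 held 0 matches to the element core. NF-Y boxes alone are common, in 33.8% of windows, and the Idi1 window held 2, the Lss window 1 and the Insig1 window 1. The printed Dhcr7 window held 2 but was picked for them, and the windows of its other annotated starts held 0. The GC box (GGGCGG, present in 32.7% of windows and left in lower case) also lay in each of the 5 printed windows. A match of letters describes the window only and does not show that a factor binds there.

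Levels are on the log2 scale, with the 75th percentile of the array's signals set to 0, so a level of 1 is double that signal, and levels of different genes are not compared because each probe has its own brightness. Differences are the first-named group minus the second, with the standard error (SE), and a change was called where the limma fit of the 4 groups gave an adjusted p under 0.05 (Benjamini-Hochberg, over all 26477 genes and features). The share of spots well above background ran from 59.9% to 66.1% over the arrays, and the 75th percentile of the signal from 1027 to 1385 units. The arrays were on 2 slides: slide 1 held the 4 freeze-dried animals with fresh 1 and 2 and irradiated 1 and 2, and slide 2 held the 4 heated animals with fresh 3 and 4 and irradiated 3 and 4. Neuronal markers were high in every animal, with the mean level of 5 such genes between 4.20 and 4.64. The hindbrain and spinal cord gene Hoxb5 was below a level of -4 in heated 2, heated 4, freeze-dried 2 and fresh 2, and the Purkinje cell gene Pcp2 was low in heated 2 and 4 (-3.10 and -4.26). The pituitary hormone gene Gh was above 1 in heated 1, freeze-dried 1 and fresh 3, the muscle gene Acta1 was at 1.23 in fresh 1 and between -2.10 and -1.60 elsewhere, and the skin keratin gene Krt14 was at 1.94 in freeze-dried 2 and between -4.26 and -3.60 elsewhere. The sexes were uneven among the groups. The X-inactivation RNA Xist was high (-1.42 to -0.99) and the Y-linked Kdm5d low (-8.28 to -4.16) in heated 1, 2 and 3, irradiated 4 and fresh 1 and 3, the female pattern. The other 10 animals, among them heated 4 and all 4 freeze-dried animals, had Xist at -8.52 to -6.52 and Kdm5d at -0.90 to -0.64, the male pattern. Heated against freeze-dried animals thus set 3 females and 1 male against 4 males.

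None of the 8 cholesterol synthesis genes changed in any of the 6 comparisons among the 4 groups. Over the 48 tests by limma, 0 passed, and the lowest adjusted p was 0.0806, for Dhcr7 in heated against freeze-dried animals. The same arrays called 3.97% of all genes in heated against freeze-dried, 2.89% in heated against fresh, 1.44% in irradiated against fresh and 0.974% in heated against irradiated animals, and 0% in freeze-dried against fresh and in irradiated against freeze-dried animals. At an unadjusted p under 0.05 the counts were 4 of 8 in heated against freeze-dried animals (23.9% of all genes), 1 in freeze-dried against fresh (9.92%), 1 in irradiated against fresh (16.7%) and 1 in heated against irradiated animals (13.8%). They were 0 in irradiated against freeze-dried (7.19%) and in heated against fresh animals (17.8%). The 95% intervals come from the limma fit without a term for slide or sex, so they bound a missed difference only under it. For 7 of the genes no interval in any comparison reached beyond 1.29-fold either way, and for Insig1 the widest reached 1.64-fold. With slide as a term Fdft1 went from -0.026 to 0.17 in heated against freeze-dried animals (SE 0.11). In freeze-dried against fresh animals it went from -0.12 to -0.22 (SE 0.089). The SD within groups had a median of 0.079 on the log2 scale over the 8 genes, against 0.145 over all genes tested. It ran from 0.064 for Hmgcs1 to 0.133 for Fdft1 in 7 of the genes, and Insig1 varied more than the typical gene, at 0.251.

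**Figure D1:**
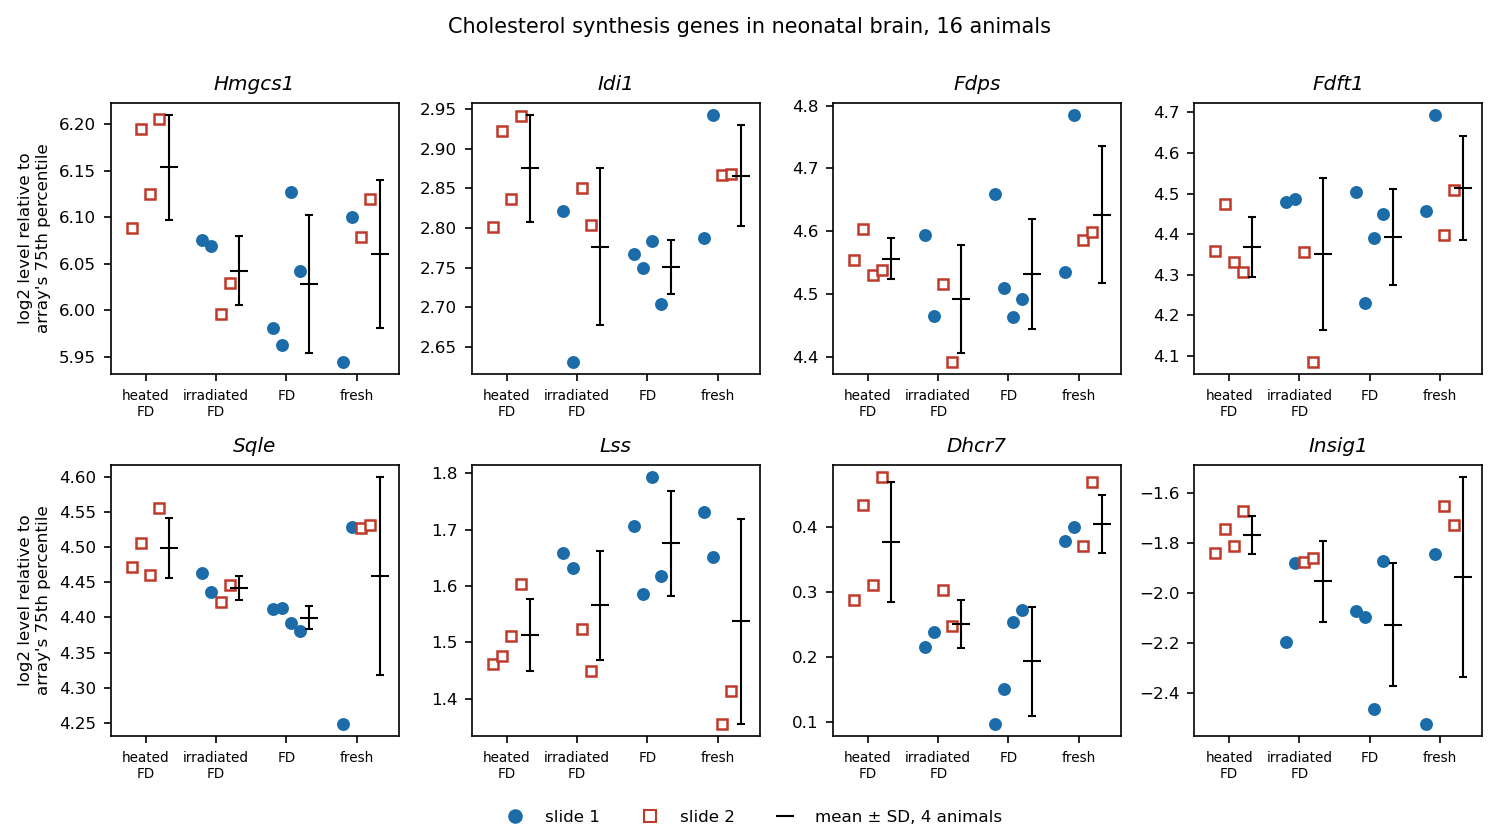
Level of each gene in each of the 16 animals (y axis, log2 relative to the 75th percentile of the array, a separate range for each gene), by group, with the slide shown by the symbol and the mean ± SD of 4 animals beside the points. The 2 groups compared do not overlap in 10 of 48 tests, the freeze-dried group has the lowest mean for Dhcr7, and for Lss the filled slide 1 symbols lie mostly above the open slide 2 symbols.

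Hmgcs1, the cytosolic synthase that makes HMG-CoA from acetyl groups at the head of the pathway, was at 6.09, 6.20, 6.12 and 6.21 in heated animals, 6.08, 6.07, 6.00 and 6.03 in irradiated animals, 5.98, 5.96, 6.13 and 6.04 in freeze-dried animals and 5.94, 6.10, 6.08 and 6.12 in fresh animals. The heated animals lay above all irradiated animals, and freeze-dried 3 lay inside the heated range. The largest difference was that between heated and freeze-dried animals, 0.12 (SE 0.055, adjusted p = 0.184 by limma), or at most 1.18-fold by its interval.

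Idi1, the isomerase that interconverts the 2 isoprenoid building units, was at 2.80, 2.92, 2.84 and 2.94 in heated animals, 2.82, 2.63, 2.85 and 2.80 in irradiated animals, 2.77, 2.75, 2.78 and 2.70 in freeze-dried animals and 2.79, 2.94, 2.87 and 2.87 in fresh animals. The freeze-dried animals lay below all heated and all fresh animals, by a narrow gap. The differences were 0.12 for heated against freeze-dried animals (SE 0.058, adjusted p = 0.209 by limma) and -0.12 for freeze-dried against fresh animals (SE 0.058, adjusted p = 0.531). With slide as a term they were 0.072 (SE 0.078) and -0.089 (SE 0.062), and the heated and freeze-dried groups shared no slide.

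Fdps joins isoprenoid units into farnesyl diphosphate, the branch point towards sterols and protein prenylation. Its levels were 4.56, 4.60, 4.53 and 4.54 in heated animals, 4.59, 4.47, 4.52 and 4.39 in irradiated animals, 4.66, 4.51, 4.46 and 4.49 in freeze-dried animals and 4.54, 4.78, 4.59 and 4.60 in fresh animals. All groups overlapped, and the largest difference was -0.13 between irradiated and fresh animals (SE 0.065, adjusted p = 0.318 by limma).

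Fdft1, squalene synthase, makes the first compound committed to sterols. It was at 4.36, 4.47, 4.33 and 4.31 in heated animals, 4.48, 4.49, 4.36 and 4.08 in irradiated animals, 4.50, 4.23, 4.39 and 4.45 in freeze-dried animals and 4.46, 4.69, 4.40 and 4.51 in fresh animals. All groups overlapped here too. The largest difference was -0.16 between irradiated and fresh animals (SE 0.094, adjusted p = 0.411 by limma). The dimmer of its 2 probes gave -0.24 for irradiated against fresh animals and -0.23 for heated against fresh animals, and missed the threshold in both (adjusted p = 0.0712 and 0.0568 over all probes).

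Sqle, squalene epoxidase, is a rate-limiting oxygen-dependent step. It was at 4.47, 4.51, 4.46 and 4.56 in heated animals, 4.46, 4.44, 4.42 and 4.45 in irradiated animals, 4.41, 4.41, 4.39 and 4.38 in freeze-dried animals and 4.25, 4.53, 4.53 and 4.53 in fresh animals. The heated and the irradiated animals lay above all freeze-dried animals, within a few hundredths of a log2 unit, while fresh 1, the animal with high Acta1, was the lowest of all. The SD within a group was 0.016 in freeze-dried and 0.141 in fresh animals, and the largest difference was 0.099 between heated and freeze-dried animals (SE 0.060, adjusted p = 0.336 by limma). Those groups shared no slide, and with slide as a term the difference was 0.036 (SE 0.081). Irradiated minus freeze-dried went from 0.042 to 0.011 with slide as a term (SE 0.064).

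Lss, lanosterol synthase, folds squalene epoxide into the first sterol. It was at 1.46, 1.48, 1.51 and 1.60 in heated animals, 1.66, 1.63, 1.52 and 1.45 in irradiated animals, 1.71, 1.59, 1.79 and 1.62 in freeze-dried animals and 1.73, 1.65, 1.36 and 1.41 in fresh animals. Within the irradiated and the fresh group, animals 3 and 4, which were on slide 2, lay below animals 1 and 2 on slide 1. The largest group difference was -0.16 between heated and freeze-dried animals (SE 0.084, adjusted p = 0.256 by limma), groups that shared no slide, and it was 0.070 with slide as a term in the fit. The slide term itself, slide 2 minus slide 1, was -0.23 for Lss (SE 0.057, adjusted p = 0.0313), so Lss was the 1 of 8 genes called between slides, where 6.86% of all genes were. The other 2 Lss probes gave slide differences of -0.076 and -0.024 and were not called (adjusted p = 0.486 and 0.847 over all probes).

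Dhcr7, the reductase of the last step, turns 7-dehydrocholesterol into cholesterol, and its loss causes Smith-Lemli-Opitz syndrome in humans. It was at 0.29, 0.43, 0.31 and 0.48 in heated animals, 0.22, 0.24, 0.30 and 0.25 in irradiated animals, 0.10, 0.15, 0.25 and 0.27 in freeze-dried animals and 0.38, 0.40, 0.37 and 0.47 in fresh animals. The freeze-dried animals lay below all fresh and all heated animals, and the irradiated animals below all fresh animals. Freeze-dried minus fresh was -0.21 (SE 0.057, adjusted p = 0.341 by limma), or 0.864-fold with a 95% interval of 0.793 to 0.940. Irradiated minus fresh was -0.15 (adjusted p = 0.195), and heated minus freeze-dried was 0.18 (adjusted p = 0.0806), or 1.14-fold with an interval of 1.04 to 1.24. Each of these 3 differences kept its sign under every alternative that was run and passed under none. Within slide 1 alone freeze-dried minus fresh was -0.20, and with slide as a term heated minus freeze-dried was 0.14. Without the 4 animals low in Hoxb5 heated minus freeze-dried was 0.091, and in a fit that also took the Y-linked signal it was 0.23 (adjusted p = 0.131).

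Insig1 is itself a target of SREBP2 and feeds back on it, so its RNA is often read as a gauge of sterol shortage. It was at -1.84, -1.75, -1.81 and -1.67 in heated animals, -2.20, -1.88, -1.88 and -1.86 in irradiated animals, -2.07, -2.10, -2.47 and -1.87 in freeze-dried animals and -2.52, -1.85, -1.65 and -1.73 in fresh animals. The heated animals lay above all irradiated and all freeze-dried animals, and the fresh group spanned the whole range, with fresh 1 the lowest and fresh 3 the highest of the 16. Fresh 1 was also the animal with high Acta1, whose part in its Sqle and Insig1 values was not tested. Heated minus freeze-dried was 0.36 (SE 0.17, adjusted p = 0.208 by limma), or 1.28-fold with an interval of 1.00 to 1.64, and it was 0.026 with slide as a term (SE 0.21). Between slides the levels differed by 0.33 (slide 2 minus slide 1, SE 0.15, adjusted p = 0.190).

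**Figure D2:**
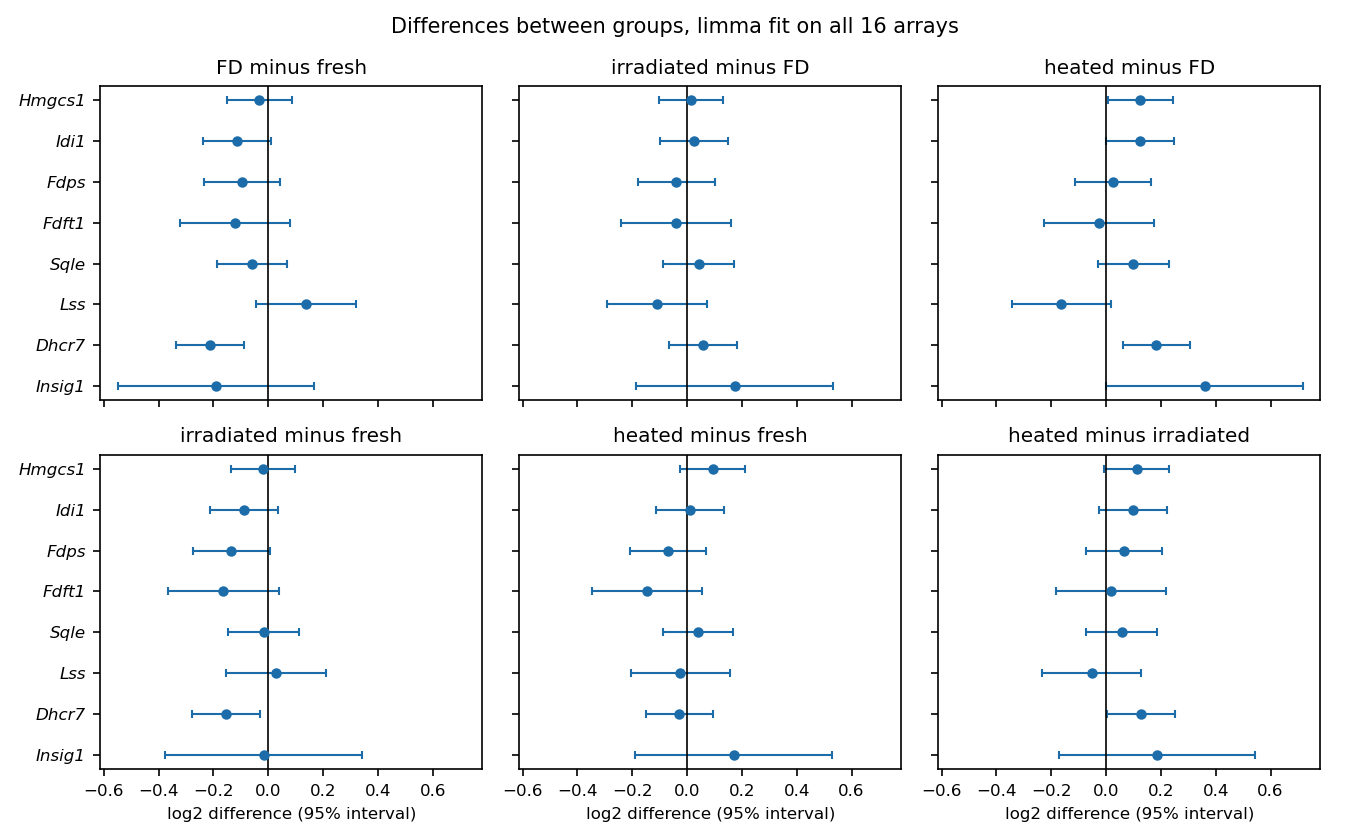
Difference of each gene (points, log2 scale, first-named group minus second) with its 95% interval from the limma fit on all 16 arrays, in the 6 comparisons. Before adjustment over all genes 7 of 48 intervals exclude 0. They are those of Dhcr7 for freeze-dried minus fresh, irradiated minus fresh, heated minus freeze-dried and, barely, heated minus irradiated. The others are Hmgcs1, Idi1 and Insig1 for heated minus freeze-dried, each with an end close to 0. The Insig1 intervals are the widest.

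Taking the 8 genes as a list, 7 had a lower mean in freeze-dried than in fresh animals, where 46.2% of all genes did. The median difference was -0.10 against 0.013 over all genes tested. Lss was the exception, at 0.14, but it was 0.022 with slide as a term and -0.016 within slide 1. Its 2 other probes gave -0.090 and 0.093. In heated against freeze-dried animals 6 of 8 had a higher mean (54.1% of all genes), with a median of 0.11 against 0.020 over all genes. These comparisons share the freeze-dried animals. In heated against irradiated animals 7 of 8 means were higher (52.1% of all genes), with a median of 0.081 against 0.0070 over all genes. Irradiated against fresh animals gave 7 of 8 lower means (42.7% of all genes) and a median of -0.054 against 0.026 over all genes. Irradiated against freeze-dried and heated against fresh animals gave medians of 0.020 and -0.0078, against 0.014 and 0.030 over all genes.

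The groups did not overlap for 4 of 8 genes in heated against freeze-dried animals, namely Idi1, Sqle, Dhcr7 and Insig1, where 20.5% of all genes tested did not. They did not overlap for 2 genes in freeze-dried against fresh animals (Idi1 and Dhcr7; 4.16% of all genes) and 2 in heated against irradiated animals (Hmgcs1 and Insig1; 13.1%). The count was 1 for irradiated against freeze-dried animals (Sqle; 4.72%), 1 for irradiated against fresh animals (Dhcr7; 9.14%) and 0 for heated against fresh animals (11.2%). When each gene was centred on its own mean, the average over the 8 genes lay between -0.0061 and 0.091 in heated animals, -0.079 and -0.015 in irradiated animals, -0.091 and -0.018 in freeze-dried animals and -0.084 and 0.13 in fresh animals. Fresh 2 had all 8 genes above their means, while fresh 1 had 3.

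Over the 16 animals, differences between groups included, the levels of some of the 8 genes were correlated. Of 28 gene pairs, 7 had a Pearson correlation that passed over the 16 animals (permutation test, two-sided, 100000 resamples, adjusted over the 28 pairs), and 13 passed by Spearman rank. Animals were shuffled across groups and slides, so these p-values do not separate relations within groups from shifts shared by a group or slide. Insig1 went with Sqle most closely (r = 0.80, adjusted permutation p = 0.00336; Spearman rho = 0.81, adjusted permutation p = 0.0035). That relation was 0.67 on slide 1 and 0.94 on slide 2, and 0.63 without fresh 1 and heated 4, the animals farthest from the median of Sqle, and 0.74 with group means removed. Hmgcs1 went with Sqle (r = 0.72, adjusted permutation p = 0.00917; rho = 0.67, adjusted permutation p = 0.0272), with 0.61 and 0.75 on slides 1 and 2, 0.55 without fresh 1 and heated 4, and 0.66 with group means removed. Idi1 went with Dhcr7 (r = 0.70, adjusted permutation p = 0.0135; rho = 0.79, adjusted permutation p = 0.00476), with 0.45 and 0.87 on the slides and 0.75 without irradiated 2 and fresh 2. With group means removed it was 0.36, so much of that relation lay between the groups.

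Fdps and Fdft1, consecutive enzymes, had r = 0.78 (adjusted permutation p = 0.00917; rho = 0.64, adjusted permutation p = 0.0337), with 0.74 and 0.96 on slides 1 and 2. Without irradiated 4 and fresh 2 their r was 0.40, so that relation rested largely on those animals, and with group means removed it was 0.73. Hmgcs1 with Dhcr7 and Idi1 with Sqle had r = 0.61 each (adjusted permutation p = 0.0481 for both; rho = 0.59 and 0.81, adjusted permutation p = 0.042 and 0.0035). Within slides these were 0.25 and 0.77 for Hmgcs1 with Dhcr7 and 0.37 and 0.71 for Idi1 with Sqle. They were 0.73 without fresh 1 and heated 4 for Hmgcs1 with Dhcr7, and 0.70 without irradiated 2 and fresh 2 for Idi1 with Sqle. With group means removed they were 0.60 for Hmgcs1 with Dhcr7 and 0.50 for Idi1 with Sqle. Lss ran against Insig1 (r = -0.78, adjusted permutation p = 0.00378; rho = -0.78, adjusted permutation p = 0.00476), with -0.67 without freeze-dried 3 and fresh 3 and -0.73 with group means removed. That relation was -0.75 on slide 1 and -0.18 on slide 2, where it did not hold. It used the Lss probe that was called between slides, and the slide differences of Lss and Insig1 had opposite signs (-0.23 and 0.33). The other 2 Lss probes, with slide differences of -0.076 and -0.024, were not tested against Insig1.

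**Figure D3:**
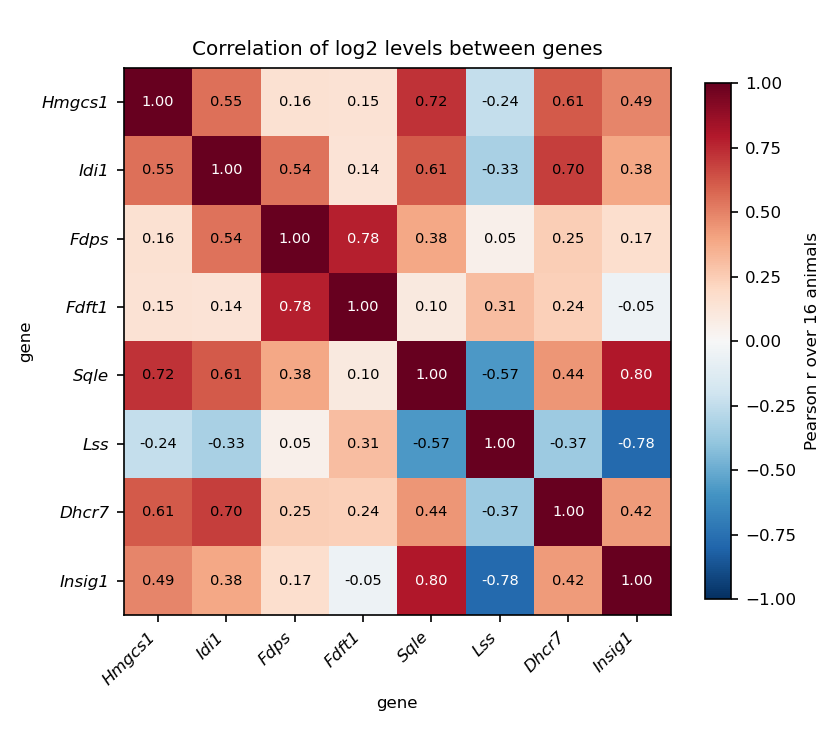
Pearson correlation of the log2 levels of each pair of genes over the 16 animals (colour and number, red positive, blue negative). Sqle with Insig1 is the strongest positive pair at 0.80, and Lss, by its brightest probe, is negative with Insig1 at -0.78 (-0.18 within slide 2).

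The tested genes with a RefSeq symbol whose levels followed the mean of the 8 genes most closely over the 16 animals were Muc20 (r = 0.91), Rrn3 (0.88), 2410004P03Rik (0.85), 4930524C18Rik (0.84) and Max (0.84). With group means removed these were 0.91, 0.82, 0.87, 0.85 and 0.73. Among the other sterol genes examined, the sterol demethylation oxidase Msmo1 was most like the mean of the 8 genes (0.82), followed by the cholesterol exporter Abcg1 (0.75).

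No other enzyme of the pathway passed in any comparison. Of the 5 measured genes between acetyl-CoA and squalene and the 9 of the sterol ring steps, 0 passed in any comparison. Msmo1 came closest, with 0.25 in heated against irradiated animals (SE 0.065, adjusted p = 0.0900), at 4.25 ± 0.04 in heated and 4.00 ± 0.05 in irradiated animals (SD, n = 4 each). Of 9 fatty acid synthesis genes, which answer to the related factor SREBP1, 0 passed in any comparison, and Fasn had 0.19 in heated against freeze-dried animals (SE 0.063, adjusted p = 0.0895).

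In the main fit the RNA of some genes of SREBP control, sterol uptake and turnover passed, and each of these calls was lost under some of the alternatives. Srebf2 was at -0.67, -0.67, -0.65 and -0.57 in heated animals, -0.58, -0.49, -0.69 and -0.59 in irradiated animals, -0.52, -0.54, -0.36 and -0.31 in freeze-dried animals and -0.22, -0.29, -0.35 and -0.29 in fresh animals. All heated and all irradiated animals lay below all fresh animals, and the freeze-dried animals lay between, overlapping the irradiated and the fresh group. Srebf2 fell by 0.35 in heated against fresh animals (SE 0.063, adjusted p = 0.0116 by limma; 0.601% of all genes fell there) and by 0.30 in irradiated against fresh animals (SE 0.063, adjusted p = 0.0382; 0.597%). Heated minus freeze-dried was -0.21 (adjusted p = 0.0764) and freeze-dried minus fresh was -0.15 (adjusted p = 0.476). It was the 1 of 6 genes of SREBP control that passed in each of those comparisons, and Srebf1, Scap, Insig2, Mbtps1 and Mbtps2 did not pass in any.

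The fall of Srebf2 in heated against fresh animals stayed past the threshold in all 16 fits that left out 1 array, and was -0.31 with slide as a term (adjusted p = 0.0399). Within slide 2 it was -0.32 and did not pass (adjusted p = 0.127), nor did it without the 4 animals low in Hoxb5 (-0.38, adjusted p = 0.174) or with the 2 groups alone (adjusted p = 0.0625). The fall in irradiated against fresh animals was -0.28 on slide 1 and -0.32 on slide 2 and passed on neither (adjusted p = 0.378 and 0.116). It also did not pass with the replicate block (adjusted p = 0.0581), the Y-linked signal (0.0565), no filter on dim probes (0.106), the 2 groups alone (0.123) or without the animals low in Hoxb5 (0.145), although its value stayed between -0.31 and -0.30 in these fits. The value ran from -0.33 to -0.27 when 1 array was left out. It no longer passed without heated 1, 2 or 3, any 1 irradiated animal, or fresh 1, 2 or 3, which is 10 of the 16 arrays (adjusted p from 0.0535 to 0.105).

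Mylip encodes a ubiquitin ligase that marks lipoprotein receptors for breakdown. It was at -0.16, -0.19, -0.25 and -0.28 in heated animals and -0.59, -0.66, -0.67 and -0.74 in irradiated animals, and rose by 0.44 in heated against irradiated animals (SE 0.097, adjusted p = 0.0464 by limma; 0.548% of all genes rose there). In freeze-dried animals it was at -0.08, -0.45, -0.45 and -0.60, and in fresh animals at -0.16, -0.39, -0.41 and -0.50. The heated and irradiated groups were apart by more than the range within either, and the difference was 0.48 within slide 2, where it passed (adjusted p = 0.0270). It did not pass in the deposited table (0.43, adjusted p = 0.0537), with normexp background (0.40, adjusted p = 0.0606), with no filter on dim probes (0.44, adjusted p = 0.0771), with the Y-linked signal (0.42, adjusted p = 0.113) or without the animals low in Hoxb5 (0.46, adjusted p = 0.281). With 1 array left out it was 0.42 to 0.47 and passed only without freeze-dried 1, freeze-dried 4, fresh 1 or fresh 4, so that 12 of 16 fits lost the call (adjusted p from 0.0504 to 0.140).

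In heated against freeze-dried animals, where 2.53% of all genes rose, 1 of 8 uptake genes and 1 of 9 export and turnover genes rose. Vldlr, a lipoprotein receptor that also carries the reelin signal in migrating neurons, was at 3.00, 3.07, 2.95 and 3.10 in heated animals and 2.66, 2.68, 2.63 and 2.73 in freeze-dried animals, and rose by 0.36 (SE 0.090, adjusted p = 0.0427 by limma). It was 0.091 with slide as a term, where it did not pass (adjusted p = 0.860), the slide difference itself was 0.27 (adjusted p = 0.0177), and the second Vldlr probe gave 0.14. Ch25h, which makes the oxysterol 25-hydroxycholesterol, was at -3.57, -3.29, -3.63 and -3.72 in heated animals and -3.79, -4.02, -4.07 and -4.03 in freeze-dried animals, and rose by 0.42 (SE 0.10, adjusted p = 0.0382). It was 0.33 with slide as a term, where it did not pass (adjusted p = 0.591). In a fit that also took the Y-linked signal neither passed, with 0.33 for Vldlr (adjusted p = 0.187) and 0.35 for Ch25h (adjusted p = 0.200), in a comparison of 3 females and 1 male with 4 males. Neither passed without the animals low in Hoxb5 (0.30 and 0.36, adjusted p = 0.352 and 0.259), in the deposited table (0.11 and 0.21, adjusted p = 0.999 for both) or with no filter on dim probes (adjusted p = 0.0802 and 0.0695), and Ch25h did not with quantile normalization (0.36, adjusted p = 0.111) or the replicate block (adjusted p = 0.0521). With 1 array left out Vldlr was 0.33 to 0.38 and was lost in 10 of 16 fits (adjusted p from 0.0517 to 0.111), namely without any 1 heated or freeze-dried animal, irradiated 3 or fresh 4. Ch25h was 0.34 to 0.49 and was lost in 8 of 16 fits (adjusted p from 0.0506 to 0.108), namely without any 1 heated animal, irradiated 3 or freeze-dried 2, 3 or 4.

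**Figure D4:**
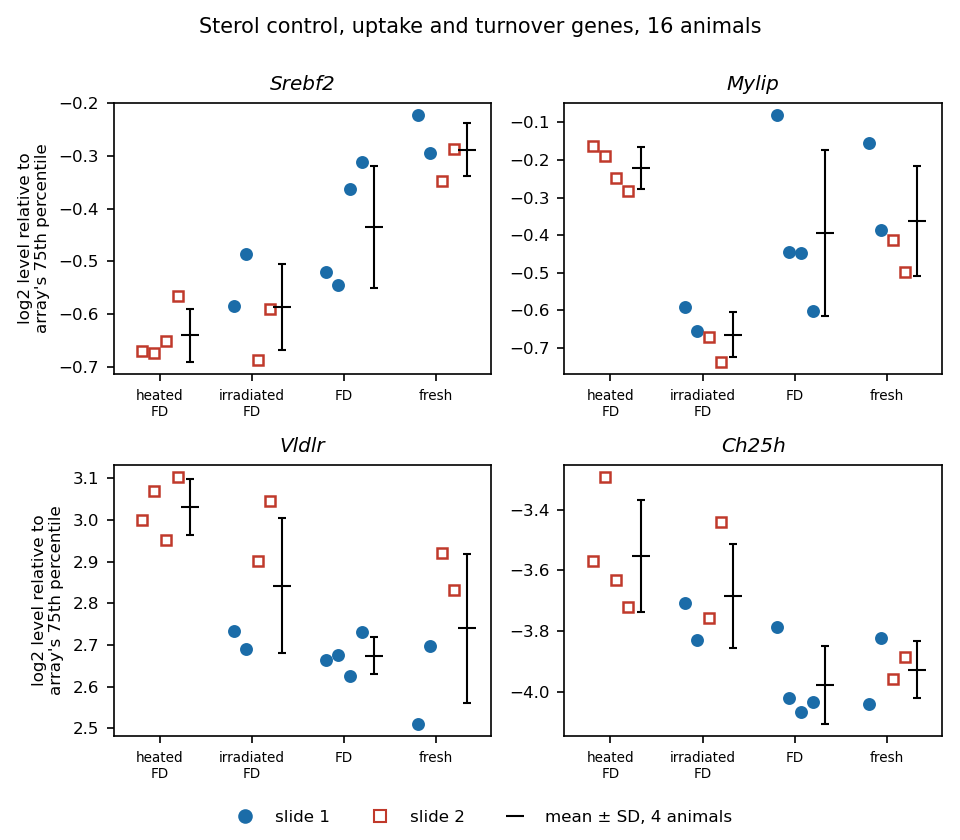
Level in each animal (y axis, log2 relative to the 75th percentile of the array) of the regulator Srebf2, the ligase Mylip, the receptor Vldlr and the hydroxylase Ch25h, by group and slide, with mean ± SD of 4 animals. Srebf2 is low in heated and irradiated animals at means of -0.64 and -0.59 against -0.29 in fresh animals, and for Vldlr the slide 2 symbols lie above the slide 1 symbols within the irradiated and the fresh group.

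Described as lists, the 5 measured mevalonate genes, 9 ring genes, 6 genes of SREBP control, 8 uptake and transport genes, 9 export and turnover genes and 9 fatty acid synthesis genes had 0 genes past the threshold in freeze-dried against fresh and in irradiated against freeze-dried animals. In heated against freeze-dried animals, with a median difference of 0.020 over all genes, the list medians were -0.0050, 0.046, 0.024, 0.17, 0.12 and 0.018 in that order. Uptake and transport had 6 of 8 genes with a higher mean there, and export and turnover 8 of 9, where 54.1% of all genes did. In heated against irradiated animals the median of the uptake and transport genes was 0.19 against 0.0070 over all genes. In irradiated against fresh animals it was -0.066 against 0.026, with 7 of 8 means lower (42.7% of all genes). The SREBP control genes had a median of -0.068 in irradiated against fresh animals and 0.057 in heated against fresh animals, against 0.026 and 0.030 over all genes.

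Some markers of brain cell types passed in the main fit of heated against freeze-dried animals, groups that shared no slide. Among them 2 of 7 astrocyte genes, 1 of 10 oligodendrocyte lineage genes and 1 of 5 neuronal genes rose, where 2.53% of all genes rose. Of the progenitor genes 3 of 6 fell, where 1.44% of all genes fell, and so did 1 of 3 cerebellar and 1 of 4 choroid plexus genes tested. Of the microglial genes 0 of 6 passed. Over all genes that comparison called 0 with slide as a term, 0 in the deposited table and 11 without the arrays low in Hoxb5. The summed astrocyte signal was 24.2 to 27.7 times the 75th percentile in heated and 22.0 to 26.1 times in freeze-dried animals, and the oligodendrocyte sum was 20.8 to 21.7 and 17.6 to 20.8 times. The neuronal sum was 165 to 178 and 158 to 169 times, and the microglial sum 9.21 to 9.89 and 8.01 to 8.18 times. The progenitor sum was much the same in both groups, at 32.2 to 35.9 and 32.0 to 35.7 times, although 3 of its genes fell. In heated against fresh animals 1 of 7 astrocyte, 1 of 10 oligodendrocyte lineage, 2 of 6 microglial and 1 of 6 progenitor genes rose, where 2.29% of all genes rose. There 2 of 6 progenitor genes fell, where 0.601% of all genes fell. All genes of the astrocyte, oligodendrocyte lineage, neuronal, progenitor and microglial lists were well above background on every array of at least 1 group. The part of cell composition in the values of Srebf2, Vldlr or Ch25h was not tested.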

How the data were processed

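Per the submitters' processing notes, the authors read the scans with version 11.0.1.1 of Agilent Feature Extraction. The deposited scanner files hold fluorescence intensity (processed signal, background subtracted, per the file headers) and flags of 0 or 1 for each spot. A deposited table of log2 values (31313 probes, column medians from 9.335 to 9.348, r with the scanner values of at least 0.999) was used as an alternative, and its scale beyond log2 and its centring are unknown. Spots flagged as outliers, 84 to 169 per array, were left out, among them 50 that were single-spot values, and 0 spots were saturated. The log2 of the processed signal minus the 75th percentile of the array was taken, and the spots of a probe were averaged. Probes had to be well above background on every array of some group, which kept 34261. Groups were compared with limma 3.58.1 in R 4.3.3 (4 group means, 12 residual degrees of freedom, two-sided). The code was tested on simulated data. Pairs of genes were tested in Python 3.11.15 with scipy 1.17.1.

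The members, the lists and the tests were chosen with earlier results of these data known. The genes to name were the 8 members, the passing genes of 6 sterol and lipid lists with up to 2 others per list, Srebf2, and the 5 genes most like the members, and some listed genes are not reported here. Of 48 listed sterol and lipid genes 46 were measured. Array signal over background sets the precision. Alternatives were quantile normalization, normexp background, no filter, the mean over probes, slide as a term, a single slide, replicate number, Y-linked signal, the 2 groups alone, the deposited table, leaving out arrays low in Hoxb5 and leaving out each array.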

Additional observations from a re-analysis of the deposited data

Results flagged for a closer look

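Of 32 groups of 4 animals over the 8 genes, 2 held an animal whose gap to the others was large for the range of the group, and chance gives about 1 in 20. Sqle in fresh 1 was at 4.25, against 4.53, 4.53 and 4.53 in the other fresh animals. In the muscle gene Acta1 fresh 1 also stood apart, at 1.23 against -1.99, -2.04 and -1.90 in the other fresh animals. Insig1 in irradiated 1 was at -2.20, against -1.88, -1.88 and -1.86 in the other irradiated animals. Both are the lowest animal of their group.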

How the results depend on the processing

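The number of the 8 genes called was 0 in all 6 comparisons under every alternative run, with a lowest adjusted p of 0.0664. Of 1296 values of the genes under the alternatives, 76 had the other sign. Of these, 8 belonged to differences larger than their SE. Insig1 in heated against fresh animals (0.17) was -0.013 with normexp background, -0.079 within slide 2, and -0.026 to 0.26 when 1 array was left out. Lss with slide as a term was 0.0065 in irradiated against freeze-dried (-0.11) and 0.070 in heated against freeze-dried animals (-0.16). Within slide 1, freeze-dried against fresh animals gave -0.016 for Lss (0.14) and 0.058 for Insig1 (-0.19). Insig1 in irradiated against freeze-dried animals (0.17) was -0.0057 in the deposited table. The cause was not tested.

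Counts over all genes moved more. Heated against freeze-dried animals gave 1051, but 575 without the filter, 0 with slide as a term or in the deposited table, 142 with the Y-linked signal, 11 without the arrays low in Hoxb5, 2141 with the 2 groups alone and 204 to 1601 without 1 array. Heated against fresh animals gave 764, but 249 without the filter, 475 with normexp, 372 with slide as a term, 312 in the table, 41 with the 2 groups alone, 0 within slide 2 or without the arrays low in Hoxb5, and 238 to 1169 without 1 array. Irradiated against fresh animals gave 381, but 66 without the filter or with the 2 groups alone, 212 with normexp, 172 with the Y-linked signal, 662 with slide as a term, 939 in the table, 0 and 74 within slides 1 and 2, 0 without the arrays low in Hoxb5, and 59 to 523 without 1 array. Heated against irradiated animals gave 258, but 91 without the filter, 110 with normexp, 112 in the table, 64 with the Y-linked signal, 728 with the 2 groups alone, 12 without the arrays low in Hoxb5, and 45 to 388 without 1 array. Freeze-dried against fresh and irradiated against freeze-dried animals gave 0, and 0 to 4 and 0 to 3 without 1 array, with 1 for freeze-dried against fresh animals with slide as a term.

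Correlations between same-numbered animals of different groups ran from -0.387 to 0.383, with 10 of 24 over 0.1. These values do not decide whether the numbers pair the samples, because the numbers also followed the slide in the fresh and the irradiated group. With the replicate number as a block 0 of the 8 genes were called in every comparison, and heated against irradiated animals gave 162 genes in place of 258.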
